A study of Sus scrofa with 16 samples.

Results

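The 7 genes described here are the 4 myogenic regulatory factors MYOD1, MYF5, MYF6 and MYOG, the paired-box regulators PAX3 and PAX7 that act before them, and MSTN, the gene of myostatin, a secreted inhibitor of muscle growth. They were chosen by symbol for their role in skeletal muscle, and all 7 were found among the 19560 protein-coding genes (PCGs) of the RefSeq annotation of Sscrofa11.1. Every consensus ATAC-seq peak that overlapped a promoter (2.2 kb upstream to 500 bp downstream of a transcription start site) or a gene body with 25 kb on either side was assigned to its gene. In ATAC-seq a transposase cuts open chromatin, so that a peak marks an accessible chromatin region. The 16 libraries came from female crossbred domestic pigs and formed 8 groups of 2 replicates: longissimus dorsi muscle, heart, kidney, liver, lung and spleen on day 0, and liver on day 28 (suckling) and day 180 (adult). Per the study's methods, the animals were Berkshire × Tibetan hybrids, with a pair of full sibs at each age, and the newborn tissues came from the same pair. Each group was deposited as 1 list of peaks matched between its replicates, so a count of peaks has no replicate error and no difference between lists was tested.

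The myogenic regulatory factors are basic helix-loop-helix proteins that bind E-boxes, with the core CANNTG, together with E-proteins. MYF5 and MYOD1 commit cells to the muscle lineage, MYOG drives differentiation, and MYF6 acts in commitment and in mature fibres. PAX3 acts in the embryonic somite and in migrating precursors, PAX7 marks the satellite cells of muscle after birth, and heart muscle forms without the myogenic regulatory factors.

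Muscle was the only one of the 8 lists in which all 7 genes had a promoter peak, although it was the shortest list. In newborn heart 1 of the 7 did (PAX3). Peaks that overlapped no peak of the other 5 newborn tissues, called muscle-only here, were found around each of the 7 genes. Outside the promoters of any PCG lay 21 of the 26 (80.8%, Wilson 95% interval 62.1 to 91.5%), against 96.4% of all muscle-only peaks. Only 3 lay in a promoter of the 7 genes. The windows hold promoters by construction and the whole list includes peaks far from genes, so these shares are not like for like. The chromatin around MYOD1 and upstream of MYF6 and MYF5 carried the strongest muscle-only peaks of the 7 genes.

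Sequences are shown for promoter or muscle-only peaks of these genes, and for the strongest PAX7 peak, which kidney shared, as the bases within 100 of the muscle summit from the RefSeq genome of Sscrofa11.1, read 5′ to 3′ on the strand of the gene. Capitals mark every CANNTG core, and in the MYOG promoter also a match to TCANGTTNC, the MEF3 site. For MYOD1 these are the muscle-only peaks 22.11 kb upstream (chr2:41446245-41446445, minus strand) and 23.08 kb downstream of the start site (chr2:41401055-41401255, minus strand). The upstream one was added after its values were seen. The muscle-only peak upstream of MYF6 and MYF5 (chr5:100770557-100770757, minus strand), the MYOG promoter (chr9:113785357-113785557, minus strand), the PAX7 intron peak (chr6:77219809-77220009, plus strand) and the MSTN promoter (chr15:94628526-94628726, minus strand) follow.
MYOD1 upstream: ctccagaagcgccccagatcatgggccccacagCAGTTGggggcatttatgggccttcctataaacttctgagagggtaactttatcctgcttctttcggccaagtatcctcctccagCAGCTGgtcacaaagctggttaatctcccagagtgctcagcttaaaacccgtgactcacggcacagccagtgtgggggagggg
MYOD1 downstream: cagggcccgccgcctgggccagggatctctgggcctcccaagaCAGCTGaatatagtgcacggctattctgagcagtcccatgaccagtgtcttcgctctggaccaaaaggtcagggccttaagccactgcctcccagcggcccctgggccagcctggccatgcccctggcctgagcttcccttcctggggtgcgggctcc
MYF5-MYF6 upstream: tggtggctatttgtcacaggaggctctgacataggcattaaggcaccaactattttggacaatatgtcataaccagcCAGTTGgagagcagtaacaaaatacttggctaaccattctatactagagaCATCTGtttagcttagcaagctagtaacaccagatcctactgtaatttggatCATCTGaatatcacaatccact
MYOG promoter: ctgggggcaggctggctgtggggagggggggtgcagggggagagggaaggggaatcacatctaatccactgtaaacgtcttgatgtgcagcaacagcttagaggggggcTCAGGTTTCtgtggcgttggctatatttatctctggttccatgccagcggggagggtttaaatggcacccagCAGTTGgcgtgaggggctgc
PAX7 intron: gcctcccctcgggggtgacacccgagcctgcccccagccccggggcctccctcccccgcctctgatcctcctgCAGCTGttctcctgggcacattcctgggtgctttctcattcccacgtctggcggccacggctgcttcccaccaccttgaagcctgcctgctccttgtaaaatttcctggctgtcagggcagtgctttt
MSTN promoter: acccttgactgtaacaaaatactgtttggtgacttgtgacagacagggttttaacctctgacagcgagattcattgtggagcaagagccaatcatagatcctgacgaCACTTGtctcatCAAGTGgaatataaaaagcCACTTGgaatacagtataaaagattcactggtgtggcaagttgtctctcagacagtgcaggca

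All 7 genes had a muscle promoter peak, beside 61.4% of all PCGs. The other newborn tissues listed fewer of the 7, although they listed more PCGs. Promoter peaks were listed for 1 of the 7 in heart (67.9% of PCGs), 4 in kidney (75.1%), 3 in newborn liver (73.5%), 3 in lung (70.4%) and 1 in spleen (68.8%). Suckling liver had 2 (74.8%) and adult liver 2 (69.7%). The order of the tissues among these genes was thus not the order of the lists over all PCGs, where muscle came last.

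**Figure D1:**
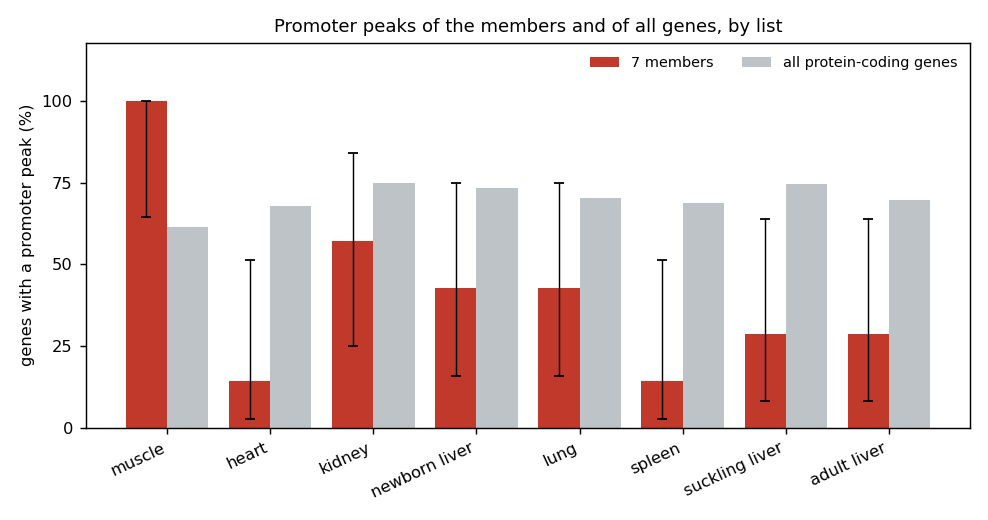
Percent of genes with a promoter peak in each of the 8 consensus lists, for the 7 genes described here (red; bars are Wilson 95% intervals, which cover counting error only) and for all 19560 protein-coding genes (grey). Muscle has the highest red bar (7 of 7) and the lowest grey bar (61.4%), and heart and spleen have 1 of 7.

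Muscle was then compared with heart, the other striated muscle. A promoter peak in muscle and not in heart was found for 6 of the 7 genes, MYOD1, MYF5, MYF6, MYOG, PAX7 and MSTN, and for 1.54% of PCGs. The reverse, in heart and not in muscle, was found for 0 of the 7 and for 8.0% of PCGs. The promoters of MYF6, PAX7 and MSTN (3 of 7) were called in muscle and in none of the other 5 newborn tissues, which held for 0.389% of PCGs. The same 3 genes had a muscle-only promoter peak, as had 2.08% of PCGs. With every list cut to its 57126 highest-ranked peaks, the length of the muscle list, 5 of the 7 had one, MYF5, MYF6, MYOG, PAX7 and MSTN. This cut shortens every list but that of muscle, so it can only add muscle-only peaks. There is no share of PCGs at this setting to set beside it. A list without a promoter peak shows that none was called, and the lists do not give the depth behind that.

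The irreproducible discovery rate (IDR) of a peak, which falls as the replicates rank it alike and high, separated these promoters. MYOD1, MYF6 and MYOG, 3 of the 7, had a muscle promoter peak at an IDR of up to 0.05, beside 36.9% of PCGs. In heart 0 of the 7 had one, beside 38.7% of PCGs. Only the MYF6 promoter, 1 of 7, was both muscle-only and at an IDR of 0.05 or lower, as 0.532% of PCGs were. The promoters of MYF5, PAX3, PAX7 and MSTN were therefore called in both muscle replicates but ranked less alike or lower.

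The windows of the 7 genes, joined where they overlap, spanned 527.1 kb and held 54 muscle peaks. Heart had 12 peaks in the same sequence, spleen 12, newborn liver 17, lung 18 and kidney 37. Of the 12 heart peaks 0 had an IDR of 0.05 or lower, beside 19.8% of the heart list, and of the 54 muscle peaks 14 had one (25.9%), beside 29.9% of the muscle list. Muscle peaks covered 5.52% of the joined windows, and heart peaks 1.12%. Divided by the share covered in the windows of all PCGs of the same list, which allows for the length of the lists, muscle reached a relative covered share of 2.34 and heart of 0.382, a ratio of 6.14 between them. The remaining newborn tissues lay at 0.82 (kidney), 0.565 (lung), 0.415 (liver) and 0.387 (spleen), so that all 5 were under the level of their own list and muscle above it.

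Gene by gene, the relative covered share was higher in muscle than in heart for 7 of 7, beside 45.5% of PCGs. Muscle was the highest of the 6 newborn tissues for 6 of 7, beside 23.0% of PCGs. The exception was PAX3, with 0.863 in muscle and 0.89 in kidney. In muscle the order ran from MYOD1 (6.29) over MYF6 (4.24), MYOG (3.35), MYF5 (3.28), PAX7 (1.92) and MSTN (1.53) to PAX3. MYOD1 was at the 99.9 percentile of all PCGs in that list and PAX3 at the 45.7 percentile. In heart, MYOG was the only one of the 7 above the level of its list, at 1.64, and MYF5 and PAX7 had no peak in their windows. In a bulk tissue, fewer cells of a type and less accessible chromatin per cell cannot be told apart.

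**Figure D2:**
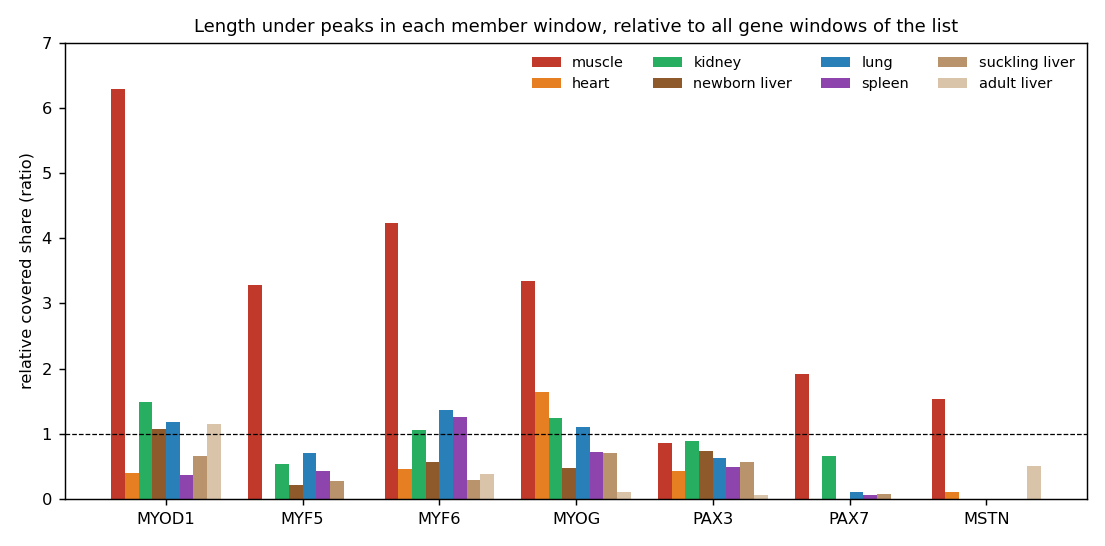
Relative covered share, the percent of a gene window under peaks divided by the same percent over all gene windows of that list, for the 7 genes and 8 lists. The dashed line at 1 is the level of the list, and the red muscle bar is the tallest of its group at every gene except PAX3, where kidney reached 0.89 and muscle 0.863.

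Of the 54 muscle peaks, 26 were muscle-only (48.1%, Wilson 95% interval 35.4 to 61.1%), against 20.1% of the muscle peaks in the windows of all PCGs. A muscle-only peak lay in the window of 7 of 7 genes, beside 33.5% of PCGs. At least 3 lay in the windows of 6 of 7, all but MYOG with 2, beside 7.26% of PCGs. Such counts are not scaled to window length, and the windows of PAX3 (149.2 kb) and PAX7 (157.8 kb) are the longest of the 7. Muscle-only peaks at an IDR of up to 0.05 lay in the windows of 4 of 7, MYOD1, MYF5, MYF6 and PAX7, beside 9.42% of PCGs. MYF5 and MYF6 share their muscle-only peaks, so they are 1 locus in these counts. Muscle-only peaks of these windows reached that IDR in 9 of 26 cases (34.6%, 19.4 to 53.8%), compared with 17.3% of all muscle-only peaks. Of the 9, 5 lay at the MYF5-MYF6 locus, and the interval takes peaks as independent. All muscle peaks of the windows reached that IDR in 14 of 54 cases (25.9%, 16.1 to 38.9%), compared with 29.9% of the muscle list. The higher share was thus seen among muscle-only peaks and not among the muscle peaks of these windows as a whole, where the interval spans the value of the list.

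The peaks of the 6 newborn lists joined into 73 regions in these windows. Of these, 44 (60.3%) were called in muscle and not in heart, whereas genome-wide 8.43% of regions were. Only 2 (2.74%) were called in heart and not in muscle, against 14.3% genome-wide, and these lay near MYOG and MSTN. Both muscles shared 8 regions (11.0%), beside 13.1% of the genome, as shares of the regions of all 6 tissues. Among regions called in muscle alone or with other tissues, those shared with heart were fewer than those not in heart (8 and 44). Genome-wide they were more (32610 and 21059). Muscle peaks that were called in 1 other newborn tissue numbered 15. Of these, 10 were shared with kidney, the longest newborn list (66.7%, 41.7 to 84.8%), beside 23.5% of all such muscle peaks. Heart shared 1 of them (6.67%, 1.19 to 29.8%), beside 43.6%. Most of those shared with kidney lay in the PAX7 window, and every kidney peak that overlapped them had an IDR above 0.05. Both intervals take peaks as independent.

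MYOD1 (gene ID 407604; chr2:41422522-41424236, minus strand) had 9 muscle peaks in its window, 3 of them muscle-only. The promoter peak reached 44.9 in replicate 1 and 63.2 in replicate 2 as the −log10 p of MACS2, with an IDR of 0.00331, and its weaker replicate value was above 90.3% of the muscle list. Peaks at the MYOD1 promoter were also called in kidney (8.22 and 5.55), newborn liver (19.4 and 9.87) and lung (3.73 and 8.96), each with an IDR above 0.05. Every replicate value there was thus below both muscle values, although −log10 p depends on the depth of a library and was not compared by a test. None was called in heart or spleen. The values of a peak are given below in this order, replicate 1 and then replicate 2.

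The strongest muscle peak of MYOD1 outside the promoter lay 23.08 kb downstream of the start site in an intron of KCNC1, a potassium channel gene, at 32.3 and 56.9 with an IDR of 0.00676. A further one lay 22.11 kb upstream in intergenic sequence, at 35.3 and 29.9 with an IDR of 0.0117. Both were muscle-only, and both hold the E-box CAGCTG in the sequences printed above, the upstream one together with CAGTTG. In mammals MYOD1 is known to be controlled by enhancers far upstream as well as by its promoter. Nearer to the gene, muscle peaks lay 5.02 kb upstream (14.6 and 7.65, also called in kidney), 10.86 kb upstream (6.23 and 14.7, also in lung) and 11.69 kb upstream (7.63 and 7.0, also in kidney). None of these 3 was called in heart. Heart had 2 peaks in the window, 11.78 kb downstream and in the KCNC1 promoter, and both sites were called in all 6 newborn tissues and in liver at every age.

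MYF6 (gene ID 397005; chr5:100762918-100764771, minus strand) and MYF5 (gene ID 100153269; chr5:100753440-100755558, minus strand) are neighbours with start sites 9.21 kb apart, and 10 of the 13 muscle peaks in their joined window belong to both windows. The muscle-only peaks of the pair, 7 in all, were all shared and are one set of sites, not independent evidence for each gene. The annotation also runs a longer gene model on the opposite strand, LOC110260827, through both genes, and transcripts of it start within the MYF6 promoter peak, so that this peak cannot be assigned to either gene.

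The MYF6 promoter peak was muscle-only, at 29.2 and 27.3 with an IDR of 0.0141. Upstream of it lay a row of muscle-only peaks in an intron of LOC110260827. The strongest, 5.89 kb upstream of MYF6 and 15.1 kb upstream of MYF5, had values of 32.9 and 38.0 and an IDR of 0.00724. The others lay 4.45 kb (31.8 and 29.7), 10.77 kb (20.3 and 18.5), 13.87 kb (34.9 and 22.8) and 15.74 kb (17.0 and 13.2) upstream of MYF6. Of the 5 upstream peaks, 4 had an IDR of 0.05 or lower. The MYF5-MYF6 locus is known for control elements spread over a long upstream stretch. The printed sequence of the strongest site holds 3 CANNTG cores and no CAGCTG.

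MYF5 differed from MYF6 at its own start. It had 2 muscle promoter peaks, at 5.56 and 5.99 and at 3.86 and 5.01, each with an IDR of 0.631. Peaks overlapping one or the other were called in kidney, lung and newborn liver, so neither was muscle-only. The 2 muscle peaks stood above 27.6% and 3.59% of the muscle list. At the same sites kidney had peaks of 11.3 and 7.91 (IDR 0.295) and of 6.38 and 8.63 (IDR 0.195). These stood above 56.7% and 44.9% of the kidney list, so they ranked higher there than the muscle peaks in theirs. The lung peak (4.44 and 10.5) and the newborn liver peak (3.33 and 4.85) ranked lower in their lists. Heart had no peak in the MYF5 window. In spleen a peak over the MYF5 gene had values of 12.9 and 23.5 and an IDR of 0.038.

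MYOG (gene ID 497618; chr9:113783233-113785312, minus strand) had a muscle promoter peak of 13.6 and 24.4 with an IDR of 0.0363. In kidney, the MYOG promoter had a peak of 4.08 and 4.99 that overlapped the muscle peak and a further one of 4.03 and 9.57, and no other newborn tissue had one. The strongest muscle peak of the window lay 15.91 kb downstream in an intron of PPFIA4, at 29.5 and 53.6 with an IDR of 0.00813. It was not muscle-only: peaks at 6.41 and 5.49 in kidney, 5.07 and 5.46 in lung and 10.9 and 15.4 in spleen overlapped it. The muscle-only peaks of MYOG lay 5.11 kb upstream (5.76 and 6.29) and 3.94 kb upstream (4.46 and 20.2), and both had an IDR of 0.631. Heart had 4 peaks here, the most of any of the 7 windows together with PAX3. One of them, 5.97 kb upstream at 4.34 and 23.3, overlapped a muscle peak of 7.05 and 17.6 that no other newborn tissue had. The printed MYOG promoter holds one CANNTG core, CAGTTG, and the MEF3 match TCAGGTTTC.

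**Figure D3:**
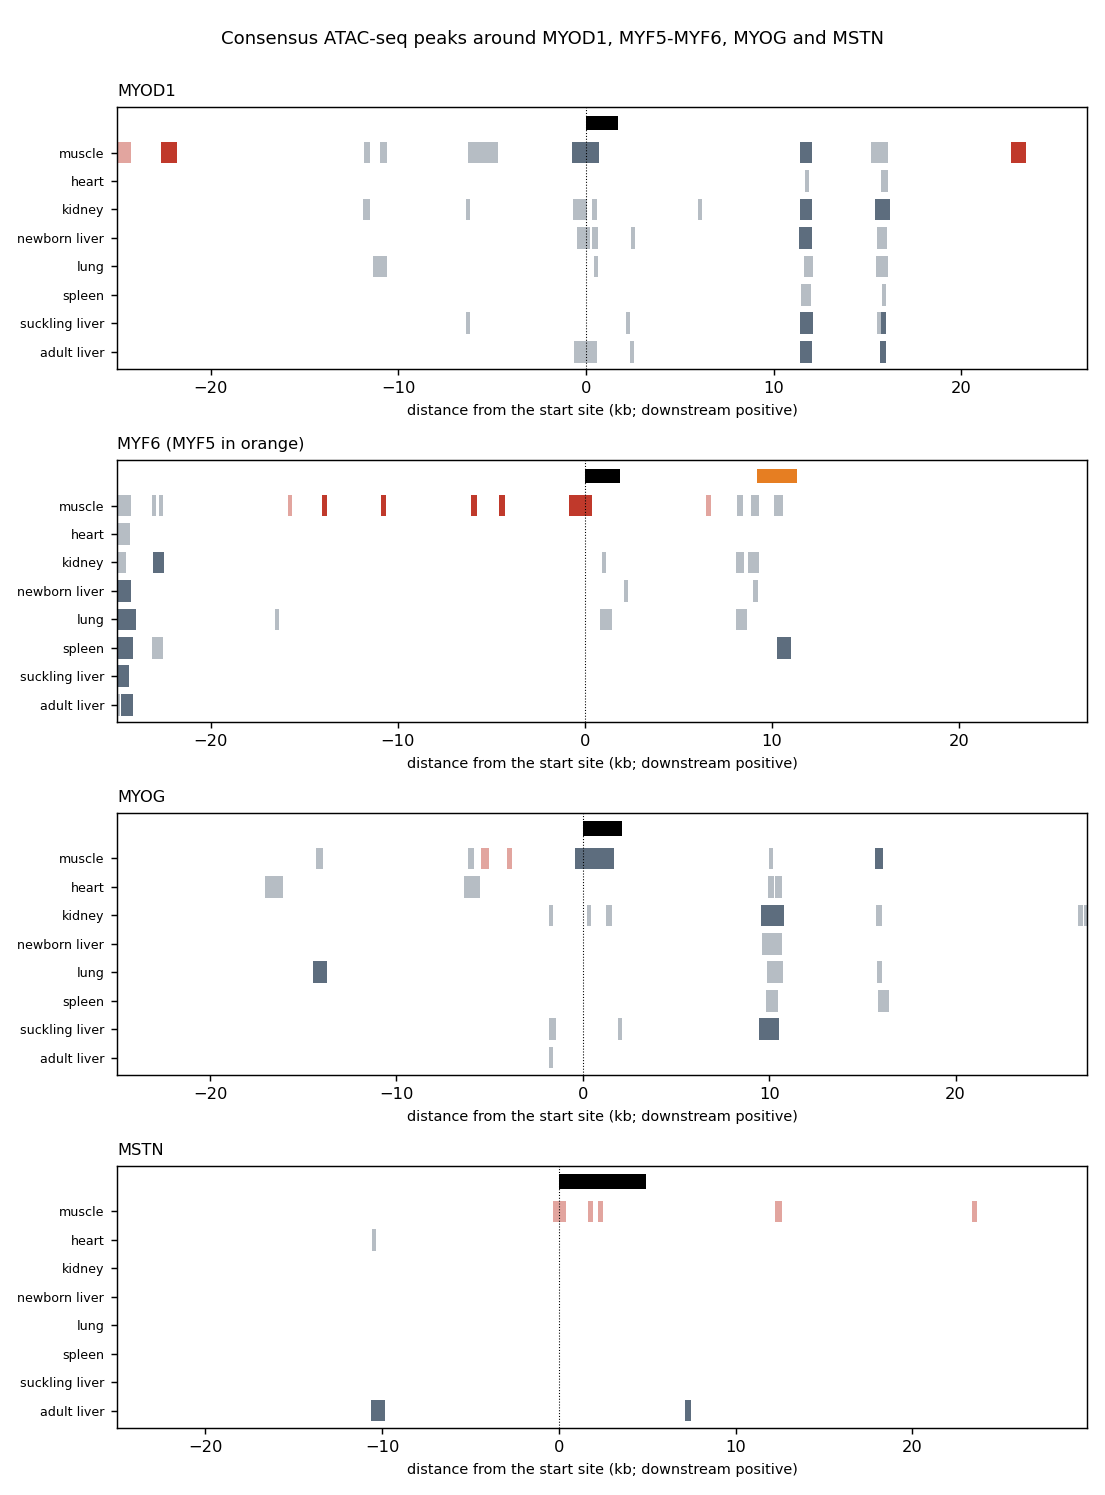
Consensus peaks around MYOD1, MYF6 with MYF5, MYOG and MSTN by distance from the start site in kb (transcription runs to the right; black bar, the gene; orange bar, MYF5), with 1 row per list. Muscle-only peaks are red, all others grey, full colour marks an IDR of 0.05 or lower, and narrow peaks are drawn at a minimum width. The red peaks upstream of MYF6 and at both ends of the MYOD1 window have no counterpart in another row, and MSTN has no peak in kidney, lung, spleen, newborn liver or suckling liver.

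PAX7 (gene ID 100625823; chr6:77160827-77268626, plus strand) had 13 muscle peaks, 6 of them muscle-only, and the strongest were deep in the gene. The peak 59.08 kb downstream of the start, in an intron, had values of 46.1 and 62.1 and an IDR of 0.00316, and a kidney peak of 5.6 and 2.96 overlapped it. Muscle-only peaks lay 72.17 kb downstream, in an intron (25.3 and 29.9, IDR 0.0123), and 123.03 kb downstream, past the end of the gene (14.7 and 24.8, IDR 0.0295). Against these the PAX7 promoter was weak, at 4.83 and 12.7 with an IDR of 0.631, though called in no other list. Heart, newborn liver and adult liver had 0 peaks in the PAX7 window, lung and spleen 1 each and suckling liver 3. Kidney had 11, of which 0 reached an IDR of 0.05, and the strongest had values of 19.6 and 12.3. The other muscle peaks of PAX7 had weaker replicate values of 4.81 to 14.6, and 0 of them had an IDR of 0.05 or lower. The printed intron sequence holds CAGCTG once.

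PAX3 (gene ID 414901; chr15:124093803-124193041, minus strand) stood apart from the others. Its promoter was called in all 6 newborn tissues and in suckling liver, with 10.5 and 32.1 in muscle (IDR 0.155), 7.35 and 7.08 in heart and 12.1 and 11.0 in kidney. None of the 7 muscle peaks had an IDR of 0.05 or lower. The strongest muscle-only one, 8.27 kb upstream, had values of 21.6 and 5.38 and an IDR of 0.437, and another, 14.51 kb downstream in an intron, had 4.39 and 91.6. The pair of values of the latter differed more between the replicates, as a ratio, than that of any other of the 54 muscle peaks. Over an exon of PAX3, 65.87 kb downstream, newborn liver had a peak of 227 and 33.2 (IDR 0.00692) that no other newborn tissue had. At the same place suckling liver had one of 49.4 and 41.4 (IDR 0.00186) and adult liver one of 67.0 and 23.7 (IDR 0.0813).

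**Figure D4:**
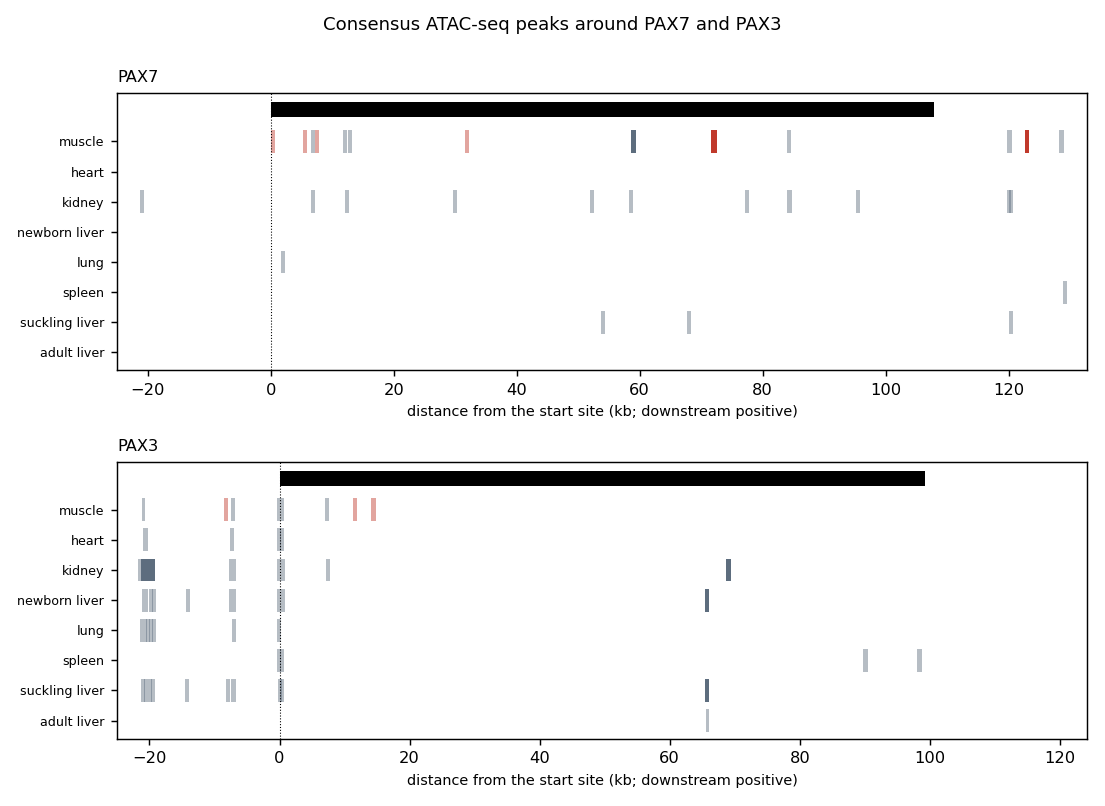
Consensus peaks around PAX7 and PAX3 by distance from the start site in kb (transcription runs to the right; black bar, the gene), with 1 row per list and the colours as for the other loci: red, muscle-only; grey, all others; full colour, an IDR of 0.05 or lower. The full-colour PAX7 peaks are all in the muscle row, whereas the PAX3 row of muscle has none.

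MSTN (gene ID 399534; chr15:94623526-94628440, minus strand) had 5 muscle peaks, and all 5 were muscle-only. The promoter peak had values of 7.64 and 32.6 and an IDR of 0.355. This interval is also a promoter of C15H2orf88, which starts on the opposite strand, so the peak cannot be assigned to either gene. The strongest muscle peak lay 23.51 kb downstream (28.5 and 16.9, IDR 0.0955), and one over an exon 2.35 kb downstream had 12.4 and 13.8 (IDR 0.0851). No MSTN peak in muscle reached an IDR of 0.05. Kidney, lung, spleen, newborn liver and suckling liver had no peak in the window, and heart had 1, 10.46 kb upstream, of 4.9 and 5.33. The printed promoter holds 3 CANNTG cores within a short stretch and no CAGCTG, and the middle one is the reverse complement of the other two.

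**Figure D5:**
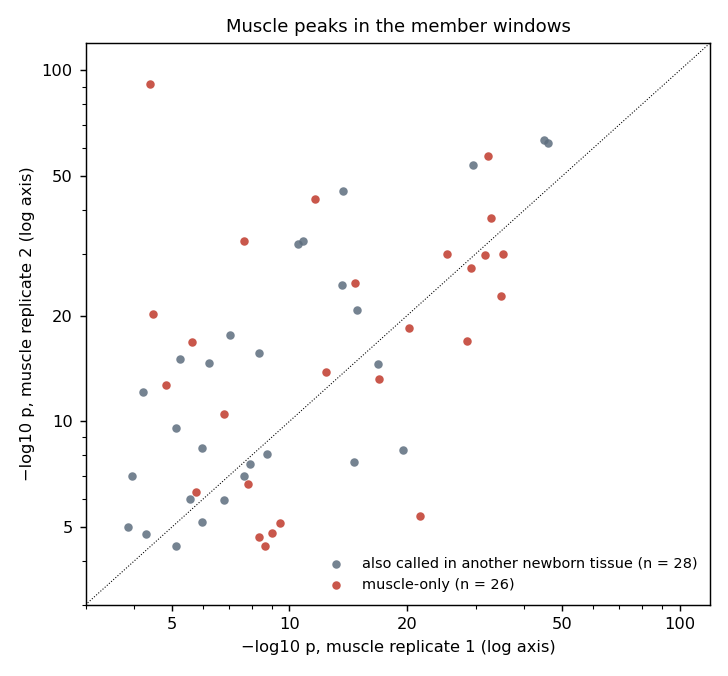
The −log10 p of the 54 muscle peaks in the windows of the 7 genes in replicate 1 (horizontal, log axis) and replicate 2 (vertical, log axis), with the 26 muscle-only peaks in red and the 28 others in grey; the dotted line marks equal values. The MYOD1 promoter (44.9 and 63.2) and the PAX7 intron peak (46.1 and 62.1) are at the upper right, and the PAX3 intron peak (4.39 and 91.6) is farthest from the line.

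Some intervals fell just on either side of the 25 kb limit. At MYOD1 a muscle-only peak 24.81 kb upstream (11.6 and 43.1, IDR 0.182) was inside, whereas one 26.0 kb upstream (10.4 and 8.71), shared with another newborn tissue, was 0.5 kb outside. A muscle-only peak 29.1 kb downstream of the MYOD1 start (11.3 and 33.8) lay 1.99 kb outside. At PAX7 the peak at 128.94 kb (16.9 and 14.6) was inside and one at 133.9 kb (9.5 and 18.0) was 1.0 kb outside. The muscle-only peak 32.4 kb upstream of MYOG (51.6 and 50.1) lay 7.16 kb outside.

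Liver showed how the windows looked over development in a tissue without skeletal muscle. The joined windows held 17 peaks in liver of newborns, 23 at the suckling and 10 at the adult age, at relative covered shares of 0.415, 0.369 and 0.229. Of the 26 muscle-only peaks, 0 overlapped a peak of suckling or adult liver (an upper limit of 12.9%), beside 9.04% of all muscle-only peaks, which that interval includes. Adult liver had 2 peaks near MSTN that newborn and suckling liver did not have. The one 10.3 kb upstream, in an intron of C15H2orf88, had values of 73.7 and 66.5 and an IDR of 0.00245, and it overlapped the heart peak there. The one 7.37 kb downstream had 16.5 in its weaker replicate and an IDR of 0.0269. Newborn and adult liver had a MYOD1 promoter peak with an IDR above 0.05, and suckling liver had none.

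The DNA under the summits was searched for E-boxes and other sites on both strands, within 100 bases of each summit. CAGCTG, the E-box that MYOD1 and MYOG prefer, was within 19 of the 54 muscle peaks (35.2%, Wilson 95% interval 23.8 to 48.5%), beside 25.3% of all muscle peaks. Among muscle-only peaks it was within 8 of 26 (30.8%, 16.5 to 50.0%), beside 30.4% of all muscle-only peaks, so the windows held the motif about as often as muscle-only peaks did elsewhere. The general core CANNTG, which includes CAGCTG, was within 79.6% (67.1 to 88.2%), beside 70.6%. Over all genes, 14.5% of the muscle promoter peaks held CAGCTG.

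For the partner factors the matches were few. The MEF3 letters TCANGTTNC were within 3 of the 54 peaks (5.56%, beside 3.78% of all muscle peaks) and the TEAD letters CATTCC within 7 (13.0%, beside 12.6%). TGANTCA, the AP-1 site, was within 3 (5.56%, beside 10.8%). The strict consensus of MEF2 was within 0 (an upper limit of 6.64%, beside 4.43%) and the CArG box within 0 (beside 1.03%), as was the palindromic site of paired homeodomains (beside 0.115%). With 54 peaks these intervals span the value of the whole list in every case, and a missing match says only that those letters were not within 100 bases.

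Genes of the same network were examined by list, beside promoter peaks at 61.4% of PCGs in muscle and 67.9% in heart and a muscle-only promoter peak at 2.08%. Differences between lists were not tested. Of 17 upstream and partner factors, such as EYA1, MEOX2 and the E-proteins, 15 had a promoter peak in muscle and 14 in heart, and only LBX1, a homeobox gene of migrating muscle precursors, had a muscle-only one (8.98 and 4.21, IDR 0.631). Of 14 inhibitors of the myogenic factors, such as ID1, TWIST1 and HES1, 13 had a promoter peak in muscle and 13 in heart, with 0 muscle-only. The myostatin pathway, from the follistatins to the activin receptors and SMADs, had 12 of 15 in each, again with 0 muscle-only.

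Among the targets of the myogenic factors, 11 genes were matched. Of these, 10 had a promoter peak in muscle and 6 in heart, and 5 had a muscle-only one. MYLPF, a fast-fibre myosin light chain, had the strongest (22.2 and 22.6, IDR 0.0224). The acetylcholine receptor subunits CHRND (22.2 and 8.1, IDR 0.398) and CHRNB1 (8.23 and 6.82, IDR 0.631) followed. Creatine kinase CKM (5.87 and 8.93) and the fetal receptor subunit CHRNG (3.93 and 14.3) came next, both with an IDR of 0.631. CHRND and CHRNB1 had a promoter peak in all 8 lists, CKM also in heart, kidney and newborn liver, and CHRNG also in kidney. The promoters of MYLPF and of MUSK, the kinase of the neuromuscular junction, were called in muscle alone. MUSK still had 0 muscle-only promoter peaks, as a peak of another newborn tissue outside the promoter overlapped its muscle peak. MYMX, MYH3 and MYH8 were not matched in the annotation. Of 8 satellite cell genes, 7 had a promoter peak in muscle and 6 in heart. ITGA7, the laminin receptor of muscle cells, had a muscle-only one (39.0 and 33.9, IDR 0.00851), called in no other list.

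The labels were checked against markers, with the same shares of PCGs as background. Of 10 skeletal muscle markers, 10 had a promoter peak in muscle and 2 in heart, and of 9 heart markers 3 had one in muscle and 8 in heart. The exception was MYH7, the slow myosin heavy chain of both muscles, which had one in muscle and not in heart, and MYH6 was not matched. For other cell types, muscle had a promoter peak at 3 of 3 smooth muscle, 2 of 4 endothelial and 2 of 5 fibroblast markers. It had one at 0 of 4 immune, 0 of 3 Schwann cell and 0 of 3 adipocyte markers. The 3 smooth muscle markers had one in every newborn list, and marker sets this small do not measure the share of a cell type. The part of these cell types in the peaks of the 7 genes was not tested.

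Over the 8 lists, the genes whose relative covered share was most like each of the 7 were found by cosine similarity, which ignores the level. MYOD1 was nearest to ZIC4 (0.989), ZIC1 (0.986) and KCNC4 (0.98), MYF6 to TNFAIP6 (0.991), ADCY2 (0.991) and MUSK (0.99), and MYF5 to FSTL5 (0.987), TBX15 (0.986) and ASCL5 (0.985). Among the genes nearest to MYOG were B3GALT1 (0.993) and OLFML2B (0.992). MSTN was nearest to LOC110261366 (0.973), the fast myosin heavy chain gene MYH4 (0.97) and BCHE (0.969). PAX7 was nearest to LOC100621767 (0.997), GK2 (0.994) and SLITRK1 (0.988). PAX3 was nearest to CAND2 (0.992), RPL32 (0.988) and PLAC1 (0.985). These genes were picked for their likeness, so their own pattern is no further evidence.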

How the data were processed

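Promoter and window peaks of 7 genes were taken from 8 lists of consensus peaks, 1 for each group of 2 libraries. According to the study's methods, the authors aligned paired-end reads to Sscrofa11.1 with Bowtie2, discarded duplicates, poorly mapped reads and mitochondrial reads with SAMtools 1.3.1 (version from the submitters' processing notes), called peaks in each replicate with MACS2 and matched the replicates by IDR. Mapping quality filters and the depth of each library act before these lists and could change which intervals they hold, and the lists themselves do not give the depth. The deposited −log10 p is given for each replicate, and the deposited IDR score is −log10 of the IDR. Neither is scaled between lists, so values were ranked only within a list. Lists were not filtered on IDR by the authors.

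Intervals were counted from 1 and overlapped from 1 bp, with Python 3.11.15, pandas 2.3.3, numpy 2.4.6 and pysam 0.24.0. Wilson 95% intervals (scipy 1.17.1) cover counting error only. Figures were drawn with matplotlib 3.10.9. Genes, start sites and sequences came from RefSeq for Sscrofa11.1, over chromosomes 1 to 18, X and Y. Overlap and motif code was tested on simulated data. The named peaks were the strongest promoter peak and the strongest other muscle peak of each gene, by the smaller −log10 p. Of the lists, genes with a muscle-only promoter peak were named (at most 6 per list), and 3 genes of like pattern per gene. One gene of like pattern is not reported here. Other peaks were named after their values were seen. The genes, gene lists and markers were chosen with earlier results of these data known, so they are not independent support. Groups came from the labels. No test was made, because each group is 1 list. Alternatives were an IDR filter, equal list lengths, another promoter, other windows, a larger overlap, the peak intervals of single replicates and other motif settings.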

Additional observations from a re-analysis of the deposited data

How the results depend on the processing

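The 7 genes kept more promoter peaks in muscle than in any other list in every setting tried. With peaks limited to an IDR of up to 0.05, 3 genes had a promoter peak in muscle and 0 in heart, kidney, newborn liver, lung, spleen, suckling liver and adult liver, so that 3 had one in muscle and not in heart. The windows then held 14 muscle peaks, of which 13 were muscle-only (92.9%), at a relative covered share of 1.93, and 3, 5 and 5 peaks in newborn, suckling and adult liver. With equal numbers of top peaks, promoter peaks were listed for 1 gene in kidney, 1 in lung and 0 in spleen, suckling liver and adult liver, 5 genes had a muscle-only promoter peak, the muscle-only share was 70.4%, the ratio of muscle to heart 7.92, and liver had 9, 7 and 6 peaks. The muscle list is uncut there, so shortening the other lists can only add muscle-only peaks. For lists limited by IDR or cut to equal length, there is no muscle-only share over all muscle peaks or PCGs to set beside these. A promoter of 1 kb upstream to 100 bp downstream left 1 gene in suckling liver and 1 in adult liver.

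Windows of 10 kb held 35 muscle peaks at a relative covered share of 2.44 and a ratio to heart of 8.85, with 11 peaks in newborn and 13 in suckling liver. Windows of 100 kb held 106 muscle peaks, 51 of them muscle-only, at 1.65 and a ratio of 3.86, with 40, 58 and 22 liver peaks. With the interval of 1 replicate used for every matched peak, the relative covered share was between 2.33 and 2.38 and the ratio to heart between 7.59 and 8.05. No peak left the lists under this setting, so it varied the boundaries of the peaks and not the calls. Within 50 bases of the summit CAGCTG was found in 20.4% of the muscle peaks of the windows, with no share of all muscle peaks at this setting. Within 100 bases the reversed consensus GTCGAC was found in 0.0% (an upper limit of 6.64%), beside 0.698% of all muscle peaks. It is too rare for its absence here to serve as a control. Requiring an overlap of at least 0.5 of a peak took the MYOG promoter out, which left 6 genes with a promoter peak in muscle, 5 with one in muscle and not in heart and 2 with one in lung. It raised the muscle-only peaks from 26 to 32 and their share to 60.4%. This setting also loosens the definition of muscle-only, and there is no share of all muscle peaks beside it. The other values moved by less than the spread between the replicate intervals, for counts by at most 1.5 times, and for shares within their Wilson intervals. That spread reflects peak boundaries and is not a replicate error. The cause of the changes was not tested beyond what each setting does by construction. No paired analysis was possible because the results come from no test and the labels do not tie a replicate number to an animal.

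The lists give neither read counts nor coverage, and the reads per library that the study tabulates were not used here. A peak missing from heart or liver was not called there, and its signal was not measured. The shares have no replicate error, and the 54 peaks give wide intervals.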

Other observations

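Of the 26 muscle-only peaks in the windows of the 7 genes, 11 ranked above the middle of the muscle list in both replicates (42.3%, Wilson 95% interval 25.5 to 61.1%), beside 24.2% of all muscle-only peaks. Most of the 11 lay at MYOD1 and the MYF5-MYF6 locus, and the interval takes peaks as independent. The 26 peaks had a median width of 342 bp, beside 341 bp over all muscle-only peaks, whereas the 28 muscle peaks shared with another newborn tissue had a median width of 440 bp, beside 551 bp over all shared muscle peaks.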
